A study of Mus musculus with 2 samples.

Results

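The carnitine shuttle and the mitochondrial oxidation of fatty acids were followed through 10 genes, all of which have a row among the 14500 gene symbols of the table. They comprise the carrier Slc25a20, the carnitine acyltransferases Cpt1a, Cpt2 and Crat, the acyl-CoA dehydrogenases Acadm, Acadl and Acadvl, both subunits of the trifunctional protein, Hadha and Hadhb, and the oxidoreductase Etfdh. The set was chosen by the measured level of Slc25a20, which differs between these same libraries, and the other 9 were taken for their place in its pathway. The values of the members are therefore a description and carry no test.

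The RNA came from 2 cultures of 46C, a mouse embryonic stem cell line with a green fluorescent reporter in the Sox1 locus, at passages 21 to 24. The culture titled PB received the empty vector and that titled PB-Gbx2 a vector for Gbx2, a homeobox transcription factor. Both were grown on gelatin in serum medium with LIF, a cytokine that maintains self-renewal. Each group has 1 library, so no value has a replicate error and no difference was compared with a spread between cultures. The source names of the samples are the reverse of their titles. Groups follow the titles, which match the column names, and every direction below would turn around under the source names. Gbx2 itself stood at 345 in PB and 1178 in PB-Gbx2, the direction of the titles.

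Long-chain fatty acids cannot cross the inner mitochondrial membrane as coenzyme A esters. A transferase of the outer membrane, Cpt1, links them to carnitine, the carrier Slc25a20 exchanges acylcarnitine for free carnitine across the inner membrane, and Cpt2 on the matrix side restores the coenzyme A ester. The beta-oxidation spiral then shortens the chain through dehydrogenation, hydration, a second dehydrogenation and thiolysis. Electrons of the first step pass through electron transfer flavoprotein and Etfdh to ubiquinone. Malonyl-CoA, the building block of fatty acid synthesis, inhibits Cpt1. Nuclear receptors of the PPAR and ERR families are known activators of many of these genes.

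The upstream sequences of 4 members are shown because these genes differed in direction: Slc25a20 and Cpt1a were higher in PB-Gbx2, Cpt2 was lower, and Hadhb was level. Each is the 250 bases before the start site in the RefSeq promoter table (GRCm38.p6), 5′ to 3′ on the strand of the gene. The windows are chr9:108661886-108662135 (+ strand) for Slc25a20, chr19:3323051-3323300 (+ strand) for Cpt1a, chr4:107923590-107923839 (- strand) for Cpt2 and chr5:30155003-30155252 (+ strand) for Hadhb. Capitals mark matches, on either strand, to the motifs described after the sequences.
Slc25a20: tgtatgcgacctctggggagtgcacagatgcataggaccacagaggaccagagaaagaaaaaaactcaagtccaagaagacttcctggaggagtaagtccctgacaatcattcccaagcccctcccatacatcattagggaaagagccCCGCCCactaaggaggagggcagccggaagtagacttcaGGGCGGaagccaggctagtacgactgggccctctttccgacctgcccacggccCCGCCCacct
Cpt1a: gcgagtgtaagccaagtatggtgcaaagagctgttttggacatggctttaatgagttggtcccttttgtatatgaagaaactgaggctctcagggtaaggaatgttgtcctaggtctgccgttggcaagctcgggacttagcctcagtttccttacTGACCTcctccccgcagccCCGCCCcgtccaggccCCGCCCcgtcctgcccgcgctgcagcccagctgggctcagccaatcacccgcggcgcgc
Cpt2: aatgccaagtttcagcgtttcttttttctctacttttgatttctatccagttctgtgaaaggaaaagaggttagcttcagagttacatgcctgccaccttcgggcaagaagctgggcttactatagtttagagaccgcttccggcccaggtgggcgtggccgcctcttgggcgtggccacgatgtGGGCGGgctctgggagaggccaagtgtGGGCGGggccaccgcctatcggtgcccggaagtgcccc
Hadhb: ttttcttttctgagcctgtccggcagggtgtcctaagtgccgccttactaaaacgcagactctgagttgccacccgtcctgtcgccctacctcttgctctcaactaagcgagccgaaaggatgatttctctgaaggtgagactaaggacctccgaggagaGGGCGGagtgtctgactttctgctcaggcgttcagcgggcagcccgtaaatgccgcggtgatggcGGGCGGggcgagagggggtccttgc

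Letter patterns of 4 kinds were searched on both strands: AGGTCA, the half-site of nuclear receptors; TNAAGGTCA, an extended half-site of the ERR type, which contains the first; TAATTA, a homeodomain core; and GGGCGG, the GC box. RefSeq entries were found for 9 of the 10 members. Acadl holds 4 GC boxes, Slc25a20 3, Hadha 1 and Etfdh 0, and these 4 genes have none of the other patterns. Cpt1a holds 2 GC boxes and 1 half-site, while Cpt2 and Hadhb hold 2 GC boxes each. Acadm and Acadvl hold 1 half-site each. No window of the 9 members has the extended half-site or the homeodomain core. Over all 32851 windows of this length, 32.7% hold at least 1 GC box, 14.0% a half-site, 4.84% the homeodomain core and 1.14% the extended half-site. These are shares of windows with any match, not numbers of matches, and a gene can have more than 1 window. Hadha and Hadhb are transcribed away from each other from starts 273 bases apart, so their windows share 228 bases. The GC box of Hadha lies in the shared stretch and is counted for Hadhb too.

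Levels are given in the normalized units of the authors. Whether these units take account of transcript length is not given in the sources used here, so levels are compared between libraries and not between genes. Slc25a20, the carnitine-acylcarnitine carrier, stood at 640 in PB and 3082 in PB-Gbx2, 4.82-fold higher in the latter. On the scale of log2(level + 1), the difference was 2.27. When all genes were divided by mean level into 20 groups, Slc25a20 had the highest ratio of the 725 in its group, among which the SD of log2 ratios was 0.32. Over all levels, 93 genes including Slc25a20 had a log2 ratio at least this high. Of these, Slc25a20 was the only one among the 10237 genes with a level of at least 100 in both libraries, a limit that leaves out genes low in PB alone, such as Dmgdh. By the p-values of the authors' deposited table it ranks number 3, with an adjusted p of 1.15e-06, and the other 9 members all have an adjusted p of 1. Those p-values rest on 1 library per group.

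The acyltransferases on either side of the carrier differed in opposite directions. Cpt1a, the liver-type enzyme of the outer membrane and the regulated step of the pathway, stood at 2030 in PB and 3102 in PB-Gbx2. It was 1.53-fold higher, at percentile 96.4 among genes of similar level. Cpt2, the matrix enzyme, stood at 416 in PB and 264 in PB-Gbx2. Its level was 1.58-fold lower in PB-Gbx2, at percentile 7.72. Crat, which moves short acyl groups such as acetyl between carnitine and coenzyme A, stood at 295 and 248, 1.19-fold lower and at percentile 27.0. The enzymes that load and unload long chains were thus apart in direction, and neither came near the ratio of the carrier.

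**Figure D1:**
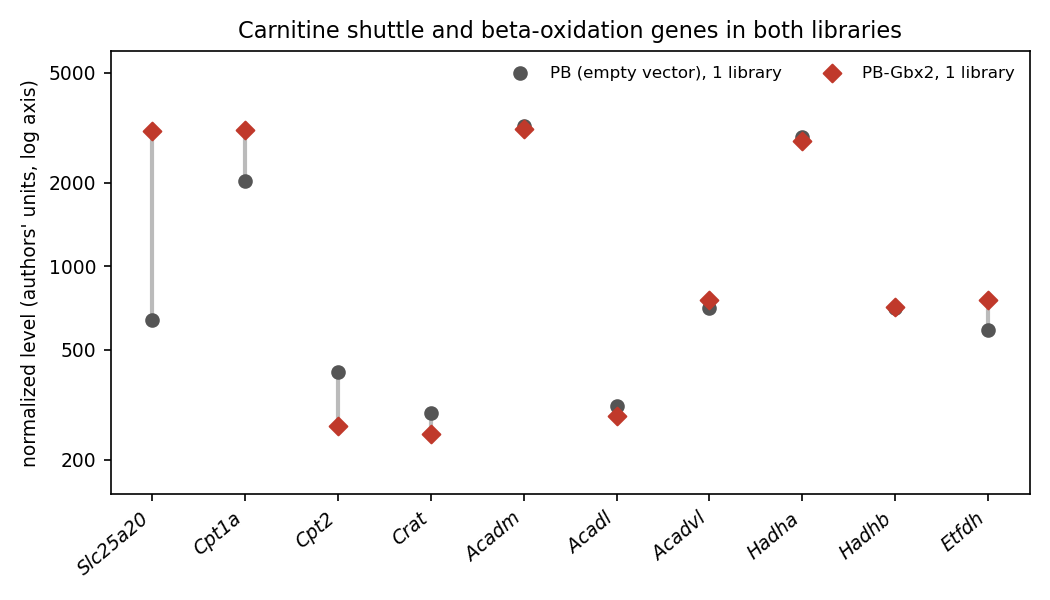
Normalized level (log axis) of the 10 genes in the PB library (circles) and the PB-Gbx2 library (diamonds), 1 library each, with a bar joining the pair. Slc25a20 spans 640 to 3082, Cpt1a and Cpt2 part in opposite directions, and the pairs of Acadm, Hadha and Hadhb nearly coincide.

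The enzymes of the spiral were close to level. Acadm, the medium-chain acyl-CoA dehydrogenase, stood at 3222 in PB and 3122 in PB-Gbx2, a ratio of 0.969. Acadl, the long-chain enzyme, stood at 312 and 288, a ratio of 0.923. Acadl, Crat and Etfdh each overlap another gene of the table in the RefSeq annotation, and whether the counting used strand is not given, so reads could be shared. Acadvl, the very-long-chain enzyme of the inner membrane, stood at 706 and 758, a ratio of 1.07. These 3 dehydrogenases, which divide the first step by chain length, lay between percentiles 37.4 and 61.2.

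Hadha carries the hydratase and the hydroxyacyl-CoA dehydrogenase activities of the trifunctional protein, and Hadhb its thiolase. Hadha stood at 2926 in PB and 2826 in PB-Gbx2, a ratio of 0.966. Hadhb stood at 709 and 711, a log2 difference of 0.0041. Both subunits, whose upstream windows overlap, lay near the middle of genes of similar level, at percentiles 41.1 and 48.4. Etfdh, which hands the electrons to ubiquinone, stood at 591 and 756. It was 1.28-fold higher in PB-Gbx2, at percentile 87.0.

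Of the 10 members, 1 was at least 2-fold higher in PB-Gbx2, against 5.14% of all genes, and 0 were at least 2-fold lower, against 5.26%. At 1.5-fold, 2 members were higher, Slc25a20 and Cpt1a, against 11.6% of all genes, and 1 was lower, Cpt2, against 12.2%. All 10 members reached a level of 100 in one library or both. Of all genes that did, 2.46% were at least 2-fold higher. Since the carrier led to the choice of the set, nothing is read from the count of 2-fold higher members. Without the carrier, 4 members lay above 0 and 5 below, with a median log2 ratio of -0.05, and the median over all genes was 0. The median absolute log2 ratio of these 9 was 0.12, and that of all genes was 0.27. These values are not matched by level: all 9 reached 100, but only 10941 of the 14500 genes did, and ratios spread more at low levels. Slc25a20 exceeded the next member, Cpt1a, by 1.65 on the log2 scale.

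**Figure D2:**
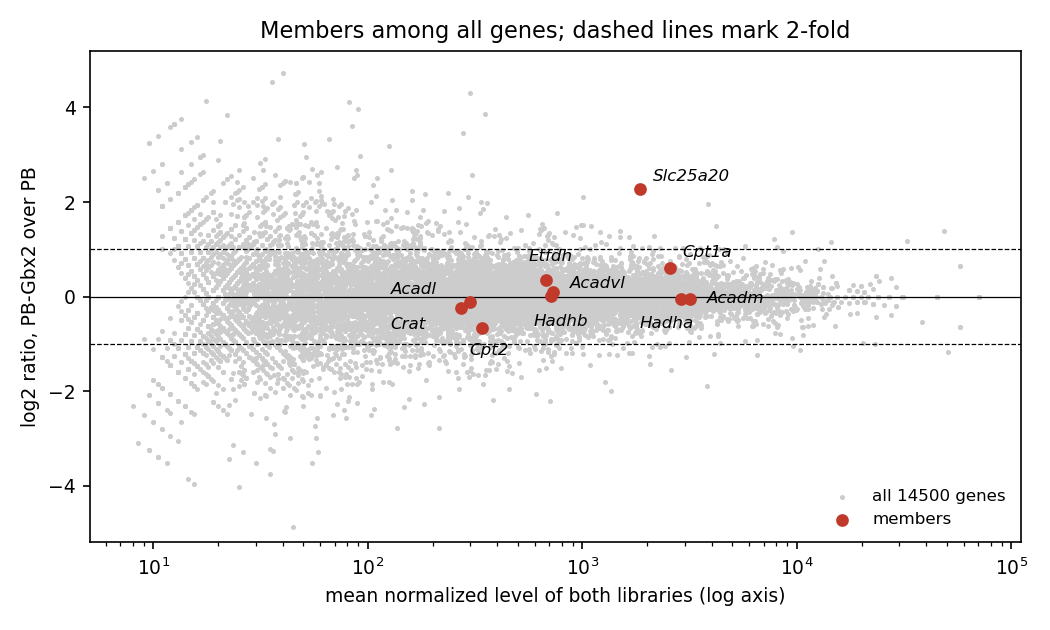
Log2 ratio of PB-Gbx2 over PB against mean normalized level (log axis) for all 14500 genes (grey), with the members in red and dashed lines at 2-fold. Slc25a20 lies at 2.27, outside the cloud at its level, and the other 9 members lie between -0.65 and 0.61, inside the lines.

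The wider pathway was read from 13 lists by role, and 1 of all Slc25a carriers. Counts of listed genes above 0 stand beside a share of 49.2% of all genes above 0. Among the further acyltransferases, Cpt1c, the brain-type form, stood at 1134 in PB and 1715 in PB-Gbx2, 1.51-fold higher, and Crot, the peroxisomal carnitine octanoyltransferase, at 534 and 642. Genes that supply carnitine were lower for all 3 members with a row, none past 1.5-fold. Slc22a5, the plasma membrane carnitine transporter, stood at 176 and 120, and Aldh9a1, which makes the carnitine precursor butyrobetaine, at 1988 and 1392. Slc22a21, a close relative of Slc22a5 with which reads could be shared, stood at 30 and 24. The median of this list was -0.51.

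Fatty acid uptake, activation and binding was mixed, with 7 of 15 genes above 0, 8 below and a median of -0.16. The transporter relative Slc27a3 (338 in PB and 650 in PB-Gbx2, 1.92-fold) and the binding protein Fabp5 (563 and 930, 1.65-fold) were higher. Acsl3, a long-chain acyl-CoA synthetase, was 1.68-fold lower (1618 and 964), and the very-long-chain acyl-CoA synthetase Slc27a2 1.75-fold lower (184 and 105). Fabp3 (2742 and 3879), Dbi (2108 and 2443), Acsf2 (1086 and 1374) and Acsl1 (1004 and 806) did not reach 1.5-fold. The only gene of this list past 2-fold was the scavenger receptor Cd36, at levels of 22 and 10.

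Across the full spiral of 13 genes, 4 lay above 0 and 9 below, with a median of -0.03 and none past 2-fold. Acaa2, the mitochondrial thiolase of medium chains, was the highest, at 725 in PB and 1272 in PB-Gbx2 (1.75-fold, percentile 98.2). Acad12, an acyl-CoA dehydrogenase family member, was 1.70-fold lower (235 and 138). Hadh, the dehydrogenase for short and medium chains, stood at 1944 and 1917, and Acads, the short-chain enzyme, at 1830 and 1818. Enzymes for unsaturated chains, Eci1, Eci2, Decr1 and Ech1, had a median of 0.09, none past 1.5-fold. Of these, Ech1 stood at 1190 and 1228.

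The electron acceptors of the spiral lay above 0 in all 3 cases. Etfa, one subunit of electron transfer flavoprotein, stood at 1358 in PB and 1713 in PB-Gbx2, 1.26-fold higher, next to 1.28-fold for Etfdh. Etfb, the other subunit, stood at 44 and 87. At that low level its ratio of 1.98 lay at percentile 88.8, close to those of Etfa (88.7) and Etfdh (87.0). Among 5 dehydrogenases outside the spiral that feed the same flavoprotein, Dmgdh, the dimethylglycine dehydrogenase, stood at 45 and 508, 11.3-fold higher. Gcdh (1985 and 2065), Acadsb (1068 and 1007), Ivd (952 and 1244) and Acad8 (268 and 339), which act on amino acid breakdown, stayed within 1.31-fold.

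Genes that set malonyl-CoA had a median of -0.17 over 9 members. Acaca, the carboxylase that makes malonyl-CoA for synthesis, was 1.87-fold lower in PB-Gbx2 (1621 in PB and 866), at percentile 1.10. Acacb, the mitochondrial carboxylase whose product regulates Cpt1, stood at 716 and 701. Mlycd, the decarboxylase that removes malonyl-CoA, was 1.89-fold lower (144 and 76). Of the subunits of AMP kinase, which phosphorylates the carboxylases, Prkag1 was 1.97-fold higher (140 and 276), while Prkaa1 stood at 796 and 861, Prkab1 at 861 and 763 and Prkab2 at 610 and 458.

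Peroxisomal beta-oxidation had a median of -0.09, with 4 of 12 genes above 0 and 8 below. Acox3, an acyl-CoA oxidase of branched chains, was 2.12-fold higher in PB-Gbx2 (344 in PB and 730, percentile 99.4). Acaa1b, a peroxisomal thiolase, stood at 304 and 202. Its near-identical copy Acaa1a stood at 1409 and 1313, and the split of reads between the copies is uncertain. Scp2 (1621 and 1528), Hsd17b4 (1386 and 1360) and Abcd3 (711 and 884) were within 1.5-fold. Propionyl-CoA and ketone body enzymes had a median of 0.12 over 10 genes, and Mcee, the methylmalonyl-CoA epimerase, alone passed 1.5-fold (222 and 345).

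The list of nuclear receptors and their cofactors had a median of 0.20, with 10 of 13 genes above 0, against 49.2% of all genes. Rxra, the dimer partner of the PPARs, was 2.20-fold higher in PB-Gbx2 (366 in PB and 807, percentile 99.7). Nrip1, a corepressor of nuclear receptors and so of the opposite role, was 2.09-fold higher (87 and 182). Esrrb, the ERR family member of the pluripotency network, stood at 7508 and 9456, Pprc1 at 3540 and 3974, Lpin1 at 1378 and 1813 and Med1 at 1515 and 1572. Ppara stood at only 32 and 18 and Ppargc1b at 98 and 64. The authors' deposited table lists an adjusted p of 0.614 for Rxra, 0.818 for Acox3 and 0.792 for Acaca.

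Other genes known as PPAR targets had a median of -0.32, with 3 of 11 above 0. Plin2, which coats lipid droplets, was 1.65-fold higher (228 in PB and 376 in PB-Gbx2) and Angptl4, a secreted lipase inhibitor, 1.53-fold higher (319 and 487). Txnip, the thioredoxin-interacting protein, was 1.76-fold lower (13630 and 7760). Ucp2 stood at 3354 and 2624, Acot7 at 1091 and 732, Acot1 at 412 and 329 and Acot13 at 300 and 384. Thioesterases and lipases had a median of 0.16 over 9 genes. There, the monoglyceride lipase Mgll was 2.54-fold higher (48 and 122), Abhd5, the coactivator of triglyceride lipase, 1.57-fold higher (105 and 165), and the lysosomal lipase Lipa 1.58-fold lower (174 and 110).

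**Figure D3:**
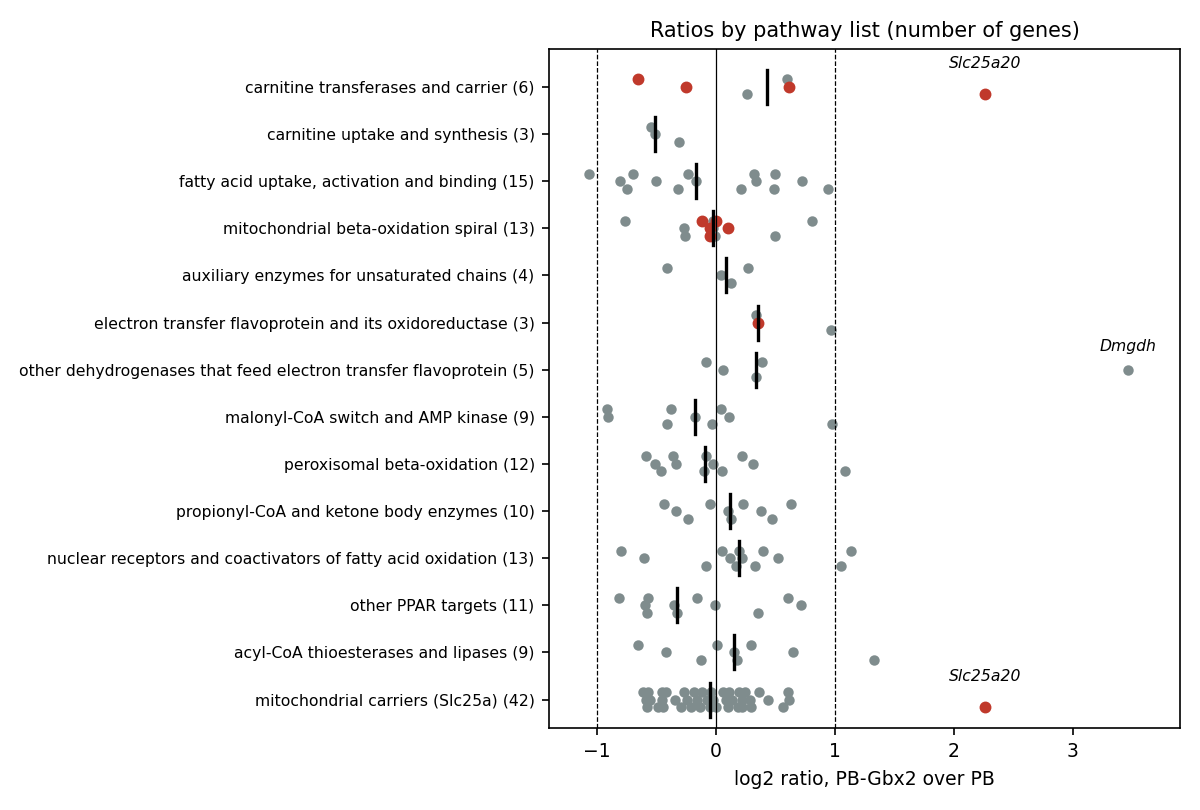
Log2 ratio of PB-Gbx2 over PB for every gene of the 14 lists (points, members in red, heights within a row spread for sight), with the median of each list as a black bar and dashed lines at 2-fold. Slc25a20 at 2.27 and Dmgdh at 3.47 lie apart, and the medians range from -0.51 to 0.43.

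Over the 103 listed genes that are neither members nor Slc25a carriers, 5 passed 2-fold upwards in PB-Gbx2 and 1 passed it downwards, where the shares of all genes are 5.14% and 5.26%. Of the 103, 94 reached a level of 100 in one library or both, among them all 5 of the higher genes. At that level the share of all genes 2-fold higher was 2.46%. Ratios above 0 were found for 52 and below 0 for 51, with a median of 0.01. The lists were drawn up with earlier results of these data known, and 16 other names on them have no row and were not analysed here, among them Mmut, the newer symbol of Mut, which has one. Slc25a20 also belongs to the family of mitochondrial carriers, of which 42 have a row. The other 41 had a median of -0.05, with 18 above 0 and 23 below. In either direction 0 passed 2-fold, again beside 5.14% and 5.26% of all genes. Of the 41, 31 reached a level of 100, at which the share of all genes 2-fold higher was 2.46%. Log2 ratios of the 41 ran from -0.62 to 0.62. Among the abundant ones, the adenine nucleotide carrier Slc25a5 stood at 10604 in PB and 11402 in PB-Gbx2, Slc25a36 at 8342 and 12313, the phosphate carrier Slc25a3 at 6639 and 8518, and Slc25a39 at 3996 and 4878. Next in level, Slc25a4 went the other way, at 5108 in PB and 3410 in PB-Gbx2 (percentile 4.28). Slc25a38 was 1.53-fold higher (414 and 635).

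Slc25a20 was also set beside its neighbours along the chromosome. Of the table's genes, 13936 (96.1%) were placed by symbol in the RefSeq annotation (GRCm38.p6), which served for order alone because the files use mm9. Arih2, an E3 ubiquitin ligase and the nearest gene on one side, stood at 2204 in PB and 6216 in PB-Gbx2. It was 2.82-fold higher, the highest ratio among the 725 genes of its level. For Arih2, the authors' deposited table lists an adjusted p of 0.00394. P4htm, a transmembrane prolyl hydroxylase and the next gene, stood at 102 and 248, 2.43-fold higher and at percentile 97.9. Wdr6, a WD repeat protein that follows P4htm, stood at 1924 and 3052, 1.59-fold higher and at percentile 97.5. Wdr6 overlaps Dalrd3, which stood at 1472 and 1597. For P4htm and Wdr6 the authors' deposited table lists an adjusted p of 1.

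On the other side of Slc25a20 the nearest genes were near level. Prkar2a, a regulatory subunit of protein kinase A, stood at 1004 in PB and 1048 in PB-Gbx2. Ip6k2, an inositol phosphate kinase, stood at 674 and 554, and Nckipsd, an adaptor protein, at 634 and 759. Ratios past 1.5-fold thus fell in 3 of 3 neighbours on the Arih2 side and 0 of 3 on the Prkar2a side, against 11.6% of all genes for higher ratios. Beyond Wdr6, the ratios of Dalrd3, Ndufaf3, Impdh2, Qrich1, Qars, Usp19 and Lamb2 lay between 0.863 and 1.19.

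Of the 3 nearest genes on each side of the other 9 members, 47 in all without the members themselves, 0 reached a 2-fold higher level and 1 a 2-fold lower level on the log2(level + 1) scale used for all calls. The 47 were counted at any level, for which the shares of all genes are 5.14% higher and 5.26% lower. The lower gene is the antisense transcript Lrp8os2 (104 and 48), near Cpt2. Gm15793, which overlaps Acadl, stood at 13 and 26, a ratio of 2 in the levels themselves that falls short on that scale (0.95). Both were named after their values were seen. Of genes that reached a level of 100 in one library or both, 2.46% were at least 2-fold higher. An adjacent gene that was also at least 2-fold higher at such a level was found for 20 of 263 of the placed genes of this kind (7.60%), and for 3.64% of all placed genes at that level. The 20 include Slc25a20, Arih2 and P4htm themselves, and Dmgdh with its neighbours Bhmt2 and Bhmt, given under other observations. The share of 7.60% is thus not independent of the run it is set beside. These shares are a description, and what links the ratios of neighbours was not tested.

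**Figure D4:**
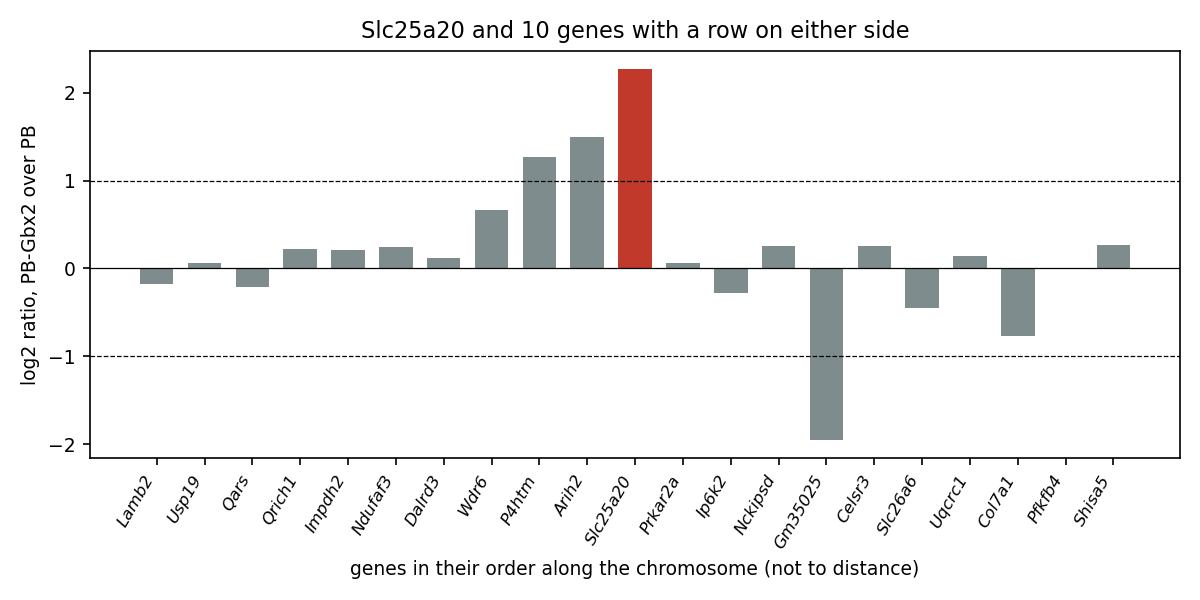
Log2 ratio of PB-Gbx2 over PB for Slc25a20 (red) and the 10 genes with a row on either side, in their order along the chromosome and not to distance, with dashed lines at 2-fold. Wdr6, P4htm, Arih2 and Slc25a20 form a run from 0.67 to 2.27 that ends at Prkar2a (0.06), and Gm35025 at -1.95 had levels of only 26 and 6.

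The 5 genes whose pair of levels was nearest to that of Slc25a20, by Euclidean distance on log2(level + 1) over the 2 libraries, were Plk2, Tmem64, Ablim1, Inhbb and Phlda3. Plk2 stood at 820 in PB and 2158 in PB-Gbx2 (distance 0.63) and Phlda3 at 677 and 1740 (distance 0.83). None of the 5 is on a pathway list, and their ratios ran from 2.40 to 2.63, below the 4.82 of the carrier.

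Markers of embryonic stem cells were present in both libraries at levels of 2828 or more for all 12 genes listed. Their levels summed to 115875 in PB and 153394 in PB-Gbx2. Of the 12, 9 lay above 0 and 2 below. At least 2-fold higher were 3, Nanog (8918 in PB and 19872 in PB-Gbx2), Klf4 (4701 and 10924) and Zfp42 (8320 and 16671), and 0 were 2-fold lower. The share of all genes at least 2-fold higher was 2.46% at a level of at least 100. Tissues that rely on fatty acid oxidation were also looked for. Adipocyte markers had no row for any of 5 genes. Of hepatocyte markers 3 of 6 had a row (sums 357 and 340), among them Alb at 282 and 270, and of myocyte markers 4 of 8 (sums 626 and 557). Visceral endoderm markers summed to 333 and 349 over 7 of 10 genes and fibroblast markers to 3331 and 2452 over 5 of 8. Of the 5 fibroblast genes, 1 lay above 0 and 4 below. Vim made up the largest part of their sum (1698 in PB and 1420 in PB-Gbx2). Col1a1 stood at 132 and 36, and Col1a2 at 9 and 18. Neural progenitor markers had a row for only 2 of 7, Sox1 (10 in PB and 56 in PB-Gbx2) and Nes (405 and 733). Both were above 1.5-fold in PB-Gbx2, against 11.6% of all genes, and Sox1 was at a low level. The part of these other cell types in the ratio of Slc25a20 was not tested. In bulk RNA, more cells of a type and more RNA per cell cannot be told apart.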

How the data were processed

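The deposited table gives, for 1 library titled PB and 1 titled PB-Gbx2, a whole-number level per gene symbol. Per the submitters' processing notes, STAR and the build mm9 were used; their versions, the gene models and the method of counting were not given in the sources used here. Levels were treated as a score normalized and rounded by the authors, not as read counts: the sorted values of both libraries are equal in all 14501 rows, as after quantile normalization. Depth is therefore unknown, no counting interval can be given, and a difference in overall distribution cannot be seen. The deposited ratio and log2 ratio are PB over PB-Gbx2, per the file headers and values. The deposited p-value and adjusted p-value are quoted as the authors' own.

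From these levels, ratios of PB-Gbx2 over PB and differences on log2(level + 1) were computed for 14500 symbols (2 rows that share a symbol were summed), which understates changes of low genes. Called means at least 2-fold or 1.5-fold on the log2(level + 1) scale, for genes that reach a level of 1 in one library or both. No test was run, as there is 1 library per group. Percentiles place a gene among the 725 genes of the same twentieth of mean level. All columns belong to the 2 libraries. The code for the calls was checked on a made-up table with equal libraries, known fold changes and no noise. Such a check can find coding errors only and says nothing about false calls between 2 unreplicated libraries. The members and lists were chosen with earlier results of these data known. Named genes were the members, Gbx2, up to 4 genes per list past 1.5-fold at a level of at least 100, up to 4 others per list by level, the 3 genes on each side of Slc25a20 and the 5 nearest in pattern. Slc25a4, Cd36, Etfb, Ppara, Ppargc1b, the genes beyond these neighbours and the marker genes named lie outside that rule and were named after their values were seen. Promoters came from RefSeq (GRCm38.p6). Python 3.11.15, numpy 2.4.6, pandas 2.3.3 and matplotlib 3.10.9 were used.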

Additional observations from a re-analysis of the deposited data

How the results depend on the processing

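The ratios of the 10 members hardly depend on the settings tried: a pseudocount of 5 moved them by at most 0.0078 on the log2 scale, one of 0.1 by at most 0.0018, and centring on genes of similar level by at most 0.013. A minimum level of 100, no minimum and rescaling by the median moved none of them, since every member exceeds 100 and the medians are equal, so these settings say nothing about stability. With a minimum level of 100, the genes at least 2-fold higher and lower numbered 269 and 259 in place of 746 and 762, because fewer genes were left. The same minimum gave medians of 0.025 for fatty acid uptake, activation and binding and -0.17 for other PPAR targets. Other counts and medians stayed within 1.5 times or 0.1 of the reported values. Setting each member among the 100 genes nearest in level on either side, an alternative chosen after seeing the data, moved no percentile by more than 5. No paired analysis was possible because there is 1 library in each group. For the same reason none could be left out.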

Other observations

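Dmgdh, which passes electrons to the same flavoprotein as the spiral, also lies in a run of neighbouring genes that were higher in PB-Gbx2. Bhmt2 and Bhmt, the next genes in order and both homocysteine methyltransferases, stood at 34 in PB and 222 in PB-Gbx2 (6.53-fold) and at 28 and 572 (20.4-fold). Bhmt, Bhmt2 and Dmgdh ranked first, first and second among genes of their level. Jmy, the gene beyond Bhmt, stood at 472 and 554, and Scamp1, on the other side, at 672 and 624. Between Dmgdh and Scamp1 lie Arsb (8 and 20) and Lhfpl2 (81 and 130). Bhmt and Bhmt2 are similar in sequence, so the split of reads between them is uncertain. This run was looked at after the values of Dmgdh and of the neighbours of Slc25a20 were seen, and what links the ratios within it was not tested.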
